A study of Sus scrofa with 12 samples.

Results

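Triglyceride synthesis and lipid droplet formation were followed through 10 genes, chosen by name for their place in the pathway, with earlier results known. Of the 10, 9 were found among the 23271 genes listed and all 9 were tested. AGPAT2 was not analysed here. RNA was measured in longissimus dorsi, the long back muscle, from 2 pig breeds matched for weight. Laiwu pigs, a Chinese breed known for fat-rich muscle, gave 6 libraries, and Yorkshire pigs, a lean Western breed, gave 6. The labels name breed and tissue, give no treatment, age or genotype, and leave unsaid whether each library is a separate animal, so the p-values cover only the spread among these samples, which may be technical. Libraries are named by breed and number.

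Muscle fibres and fat cells store fatty acids as triglyceride, which is built on glycerol 3-phosphate in the endoplasmic reticulum and in the outer membrane of mitochondria. GPAM and GPAT3 attach the first acyl chain, AGPAT enzymes the next, lipin phosphatases such as LPIN1 remove the phosphate to give diacylglycerol, and DGAT1 or DGAT2 attach the last chain. The product leaves the membrane as a droplet with the help of seipin, encoded by BSCL2, and of the fat storage inducing proteins FITM1 and FITM2. Loss of AGPAT2 or of BSCL2 causes congenital generalized lipodystrophy in people, and fat in muscle is the marbling of pork.

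The libraries held 54961358 to 67285809 counts. Fast fibre markers summed to between 38110 and 45739 FPKM in Laiwu libraries and between 36632 and 47086 FPKM in Yorkshire libraries, so the labelled tissue carried its defining transcripts. FPKM is the authors' count scaled by gene length and library size, and levels of different genes are set side by side on that scale only. Differences between breeds are log2 fold changes, Laiwu minus Yorkshire, from edgeR's quasi-likelihood test on the counts, fitted over the 11205 genes averaging 0.5 FPKM or more. A gene was called at a Benjamini-Hochberg adjusted p under 0.05. Bulk RNA cannot tell fewer cells of a type from less RNA per cell.

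None of the 9 genes was called different between the breeds by edgeR, DESeq2 or limma. The share of all tested genes called by edgeR was 0.0%, and 6 of the 9 lay above a log2 fold change of 0 where 49.7% of all tested genes did. DGAT2 had the largest fitted difference, a fold of 2.39, Laiwu over Yorkshire. It was the 1 gene of the 9 with an unadjusted p under 0.05 by edgeR, where 4.44% of all tested genes were, and 1 of the 9 was likewise under 0.05 by DESeq2 and by limma on log2(FPKM + 1), and 0 of the 9 by limma voom with quality weights. The median log2 fold change was 0.02 over the 9 genes and -0.0013 over all tested genes. The FPKM ranges of the breeds overlapped for each of the 9 genes, and 0.178% of all tested genes showed no overlap.

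**Figure D1:**
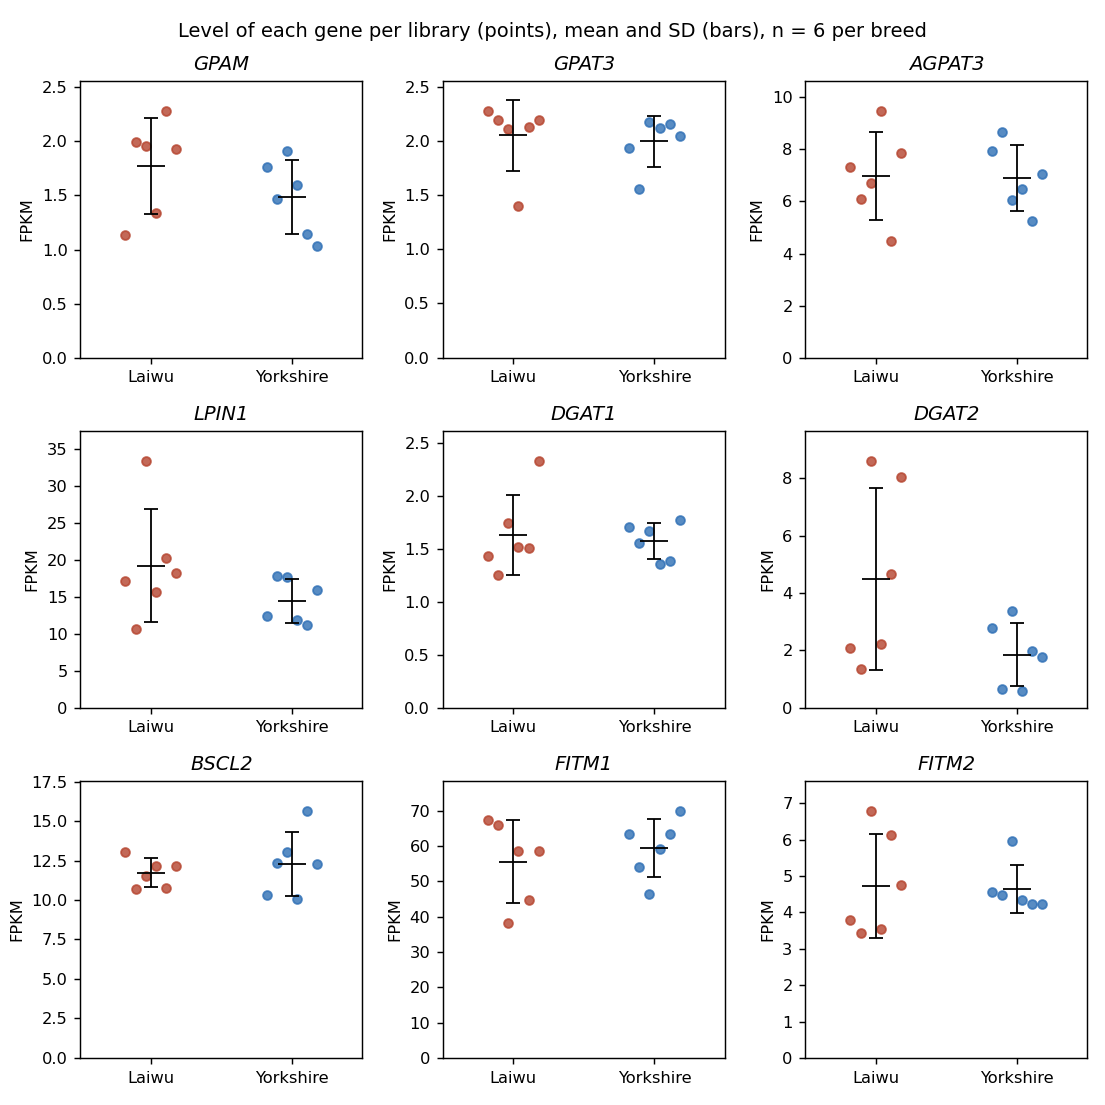
FPKM of the 9 genes in each library, with Laiwu at the left (n = 6) and Yorkshire at the right (n = 6) in every panel and bars giving the mean and SD. The breeds overlap in every panel, and the widest scatter relative to its level is in DGAT2, from 1.37 to 8.60 FPKM in Laiwu and from 0.574 to 3.36 FPKM in Yorkshire.

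The 9 genes covered a wide range of levels. FITM1, the fat storage inducing protein found mainly in muscle, was the most abundant at a mean of 57.5 FPKM over the 12 libraries, higher than 95.8% of all tested genes. LPIN1 followed at 16.9 FPKM, BSCL2 at 12.01 FPKM and AGPAT3 at 6.95 FPKM. FITM2, the widely expressed relative of FITM1, averaged 4.69 FPKM and DGAT2 3.17 FPKM. By the same mean over both breeds the lowest were GPAT3 at 2.02 FPKM, GPAM at 1.63 FPKM and DGAT1 at 1.60 FPKM. FITM1 exceeded LPIN1 in 12 of 12 libraries, and BSCL2 exceeded AGPAT3 in 12 of 12. The order held in 10 of 12 libraries between LPIN1 and BSCL2, between AGPAT3 and FITM2, and between FITM2 and DGAT2. DGAT2 exceeded GPAT3 in 6 of 12 and GPAM exceeded DGAT1 in 6 of 12, so these neighbours did not separate. By breed means the place of DGAT2 differed, though DGAT2 was not called different. Its mean of 4.50 FPKM in Laiwu was close to the 4.74 FPKM of FITM2 there, with medians of 3.44 and 4.26 FPKM. DGAT2 exceeded FITM2 in Laiwu 3 and Laiwu 6, and in no other library. In Yorkshire the mean of DGAT2, 1.85 FPKM, was below the 1.995 FPKM of GPAT3, with medians of 1.87 and 2.08 FPKM.

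GPAM and GPAT3, for the first acylation step, were low-abundance transcripts in both breeds. GPAM, the mitochondrial glycerol 3-phosphate acyltransferase (ENSSSCG00000010631; Sscrofa11.1 chromosome 14, 122538603 to 122579148), ran from 1.13 through a median of 1.95 to 2.28 FPKM in Laiwu and from 1.03 through 1.53 to 1.91 FPKM in Yorkshire. In Laiwu 4 of the 6 libraries lay above the highest Yorkshire library, and the lowest, Laiwu 1, lay among the lowest Yorkshire ones. The means were 1.77 ± 0.441 FPKM in Laiwu muscle, against 1.49 ± 0.343 FPKM in Yorkshire muscle (SD, n = 6 each), giving a log2 fold change of 0.24 ± 0.17 (SE) with an edgeR adjusted p of 0.912, and of 0.16 without Laiwu 5. GPAT3, the enzyme of the endoplasmic reticulum for the same step (ENSSSCG00000009233; chromosome 8, 134912491 to 134977388), averaged 2.05 ± 0.325 FPKM in Laiwu muscle, against 1.995 ± 0.234 FPKM in Yorkshire muscle (SD, n = 6 each). Its log2 fold change was 0.02 ± 0.14 (SE), and the 95% interval ran from -0.28 to 0.32. GPAM exceeded GPAT3 in 1 of 12 libraries, Laiwu 5, where the ratio was 1.07. The lowest ratios were 0.497 in Laiwu 1, 0.506 in Yorkshire 6 and 0.534 in Yorkshire 5.

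AGPAT3, an acyltransferase of the next step (ENSSSCG00000038081; chromosome 13, 206884538 to 206906353), had nearly equal means of 6.99 ± 1.69 FPKM in Laiwu muscle, against 6.91 ± 1.26 FPKM in Yorkshire muscle (SD, n = 6 each). Laiwu held both extremes, with 4.48 FPKM in Laiwu 5 and 9.49 FPKM in Laiwu 4. The fitted log2 fold change was -0.0050 ± 0.18 (SE), and its 95% interval of -0.39 to 0.38 corresponds to folds of 0.761 to 1.304, Laiwu over Yorkshire. The sign was not stable to the scaling or to leaving out single libraries.

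LPIN1, the phosphatidate phosphatase that supplies diacylglycerol and in mice also acts on nuclear receptor coactivators (ENSSSCG00000008624; chromosome 3, 124940561 to 125074122), had the second largest fitted difference. It ran from 10.6 through a median of 17.7 to 33.5 FPKM in Laiwu and from 11.2 through 14.2 to 17.8 FPKM in Yorkshire. Laiwu 3 stood highest and Laiwu 2 lowest of all 12 libraries, so Laiwu spanned the whole Yorkshire range. The means were 19.3 ± 7.69 FPKM in Laiwu muscle, against 14.5 ± 3.01 FPKM in Yorkshire muscle (SD, n = 6 each). The log2 fold change was 0.38 ± 0.22 (SE), with an edgeR adjusted p of 0.912, and it was 0.17 without Laiwu 3.

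The final acylation step held the gene with the widest scatter of the 9 relative to its level. DGAT2, the diacylglycerol acyltransferase linked to newly made fatty acids (ENSSSCG00000034102; chromosome 9, 10047512 to 10068437), ran from 1.37 through a median of 3.44 to 8.60 FPKM in Laiwu and from 0.574 through 1.87 to 3.36 FPKM in Yorkshire. Laiwu 3, Laiwu 6 and Laiwu 5, at 8.60, 8.05 and 4.67 FPKM, lay above every Yorkshire library. Yorkshire 4 and Yorkshire 2, at 0.574 and 0.667 FPKM, lay below every Laiwu library, and the remaining libraries of both breeds overlapped. The means were 4.50 ± 3.18 FPKM in Laiwu muscle, against 1.85 ± 1.11 FPKM in Yorkshire muscle (SD, n = 6 each). The log2 fold change was 1.26 ± 0.53 (SE, 95% interval 0.11 to 2.40), at an unadjusted p of 0.0340 and an adjusted p of 0.912 by edgeR's quasi-likelihood test. It was 0.98 without Laiwu 3 and 1.45 without Yorkshire 3, and 0.84 on the log2(FPKM + 1) scale by limma. The unadjusted p was not under 0.05 when any of Laiwu 3, Laiwu 5, Laiwu 6, Yorkshire 2, Yorkshire 4, Yorkshire 5 or Yorkshire 6 was left out. DGAT2 counts ran from 149 to 2258 per library, a 15.0-fold range of FPKM, and its SD within breeds on log2(CPM + 1) exceeded that of 98.4% of all tested genes.

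DGAT1, the unrelated enzyme that catalyses the same reaction (ENSSSCG00000005918; chromosome 4, 452662 to 463664), was steadier. It averaged 1.63 ± 0.377 FPKM in Laiwu muscle, against 1.57 ± 0.174 FPKM in Yorkshire muscle (SD, n = 6 each), and only Laiwu 6, at 2.33 FPKM, lay above the highest Yorkshire library. The log2 fold change was 0.02 ± 0.15 (SE), and -0.10 without Laiwu 6. Its last 272 bases overlap HSF1 on the opposite strand, which averaged 24.9 FPKM, and since no source used here states a stranded counting, reads of that stretch may be shared. The ratio of DGAT2 to DGAT1 FPKM ran from 1.09 through a median of 2.28 to 4.94 in Laiwu and from 0.424 through 1.21 to 2.01 in Yorkshire. DGAT2 was the more abundant of the pair in 6 of 6 Laiwu libraries and in 3 of 6 Yorkshire libraries, and this ratio was not tested.

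**Figure D2:**
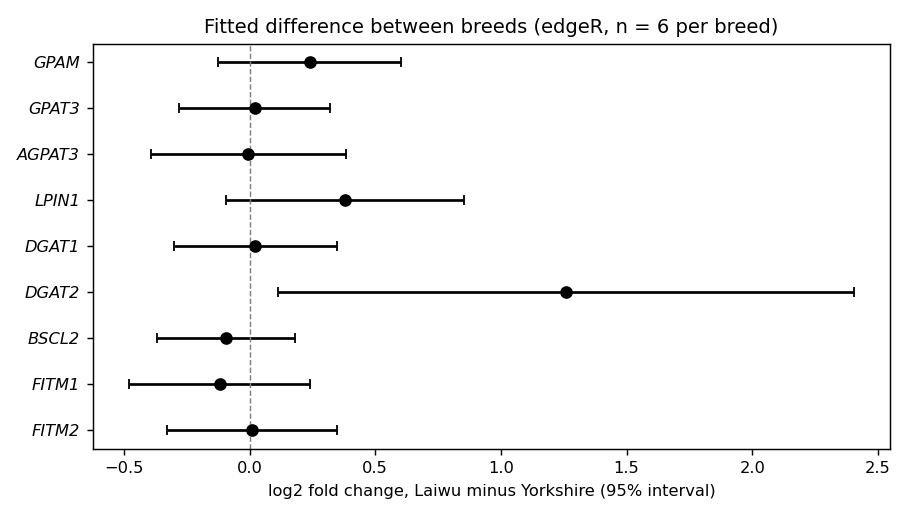
Fitted log2 fold change of each gene, Laiwu minus Yorkshire, as points with 95% intervals (n = 6 per breed), in pathway order from top to bottom. The interval of DGAT2, 0.11 to 2.40, is the only one that leaves out 0 before adjustment over all tested genes, and it is the widest.

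The droplet assembly genes had small fitted differences. BSCL2, or seipin (ENSSSCG00000020823; chromosome 2, 9052741 to 9064886), averaged 11.7 ± 0.907 FPKM in Laiwu muscle, against 12.3 ± 2.02 FPKM in Yorkshire muscle (SD, n = 6 each), and the Yorkshire libraries held both the lowest, 10.1 FPKM, and the highest, 15.6 FPKM. Its log2 fold change was -0.09 ± 0.13 (SE), and 0.0075 without Yorkshire 5, the library with the highest value. An unnamed gene at a mean of 0.164 FPKM overlaps it by 2062 bases on the opposite strand.

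FITM1 (ENSSSCG00000002007; chromosome 7, 75166912 to 75168245) ran from 38.2 through a median of 58.7 to 67.3 FPKM in Laiwu and from 46.5 through 61.3 to 69.95 FPKM in Yorkshire. The lowest libraries of all were Laiwu 3 and Laiwu 5. Its log2 fold change was -0.12 ± 0.17 (SE), with a 95% interval of -0.48 to 0.24, and it was -0.03 without Laiwu 3. FITM2 (ENSSSCG00000037912; chromosome 17, 46739973 to 46745982) ran from 3.42 through a median of 4.26 to 6.79 FPKM in Laiwu and from 4.23 through 4.41 to 5.96 FPKM in Yorkshire. By FPKM its highest libraries were Laiwu 3 and Laiwu 5, the same as the lowest of FITM1, and 3 Laiwu libraries lay below every Yorkshire one. On log2(CPM + 1), Yorkshire 3 was lower in FITM1 than Laiwu 5, at 5.41 against 5.48. The log2 fold change of FITM2 was 0.0083 ± 0.16 (SE), with a 95% interval of -0.33 to 0.35, and its sign differed between settings.

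Libraries low in FITM1 tended to be high in FITM2. On log2(CPM + 1) over the 12 libraries, Pearson's r was -0.81 (permutation p = 0.00161, adjusted over 36 pairs of the 9 genes 0.0580) and Spearman's rho was -0.71 (permutation p = 0.0115, adjusted 0.275), so the relation failed the correction. It was -0.93 within Laiwu and -0.78 within Yorkshire, and -0.64 without the 2 libraries farthest from the median FITM1 level (permutation p = 0.0528 before adjustment). The ratio of FITM2 to FITM1 FPKM was at most 0.178, in Laiwu 3, and 0.0517 at its lowest, in Laiwu 2. No other pair had an adjusted p under 0.05 either.

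**Figure D3:**
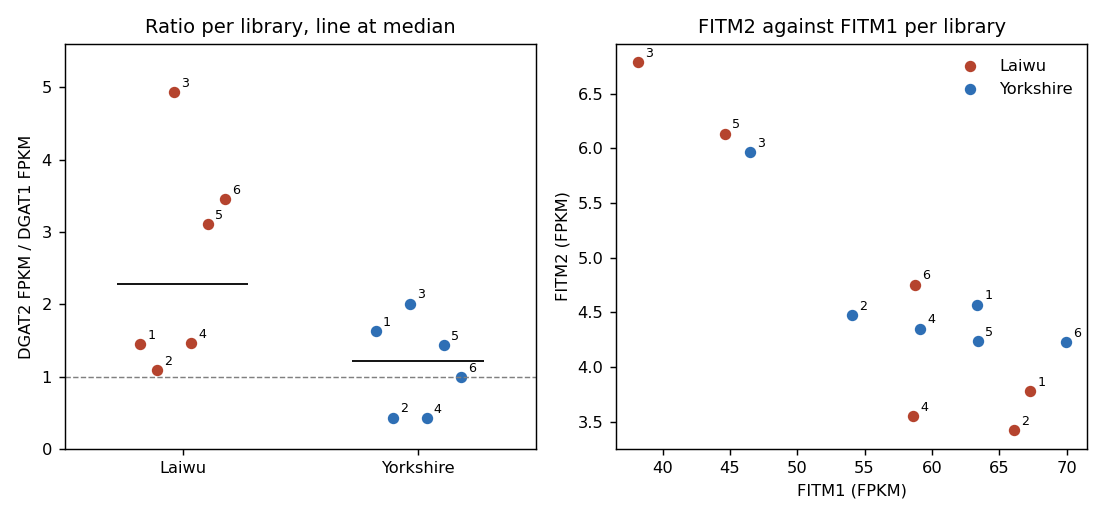
Left, the ratio of DGAT2 to DGAT1 FPKM per library with Laiwu left of Yorkshire and a line at each median, 2.28 and 1.21. Right, FITM2 against FITM1 in FPKM, where Laiwu 3 and Laiwu 5 have the lowest FITM1 and the highest FITM2; numbers beside the points name the library within its breed.

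Over all 12 libraries, fat cell markers were correlated with DGAT2 by both measures and with LPIN1 by Pearson's r. The permutations over 12 libraries ignored breed, so these correlations also contain any difference between the breeds. A score was taken as the mean over 8 adipocyte markers of log2(CPM + 1), centred per gene. Its correlation with DGAT2 over the 12 libraries was r = 0.85 (permutation p = 0.00044, adjusted over 18 relations 0.00792) and rho = 0.80 (permutation p = 0.00241, adjusted 0.0434). With LPIN1 it was r = 0.76 (permutation p = 0.0035, adjusted 0.0315) and rho = 0.73 (permutation p = 0.00911, adjusted 0.0547). Without Laiwu 3 and Yorkshire 4, the libraries of extreme score, r was 0.72 for DGAT2 and 0.57 for LPIN1, with permutation p of 0.0174 and 0.0854 before and 0.157 and 0.256 after adjustment, so neither relation passed over the remaining 10 libraries. Within Laiwu r was 0.91 for DGAT2 and 0.83 for LPIN1, and within Yorkshire 0.59 and 0.48, none past the threshold after adjustment by exact permutation. By rank they were less alike in Laiwu, with rho of 0.94 for DGAT2 and 0.54 for LPIN1, and 0.49 and 0.60 within Yorkshire. DGAT1 had r = 0.66 with the score (permutation p = 0.0185, adjusted 0.111) and rho = 0.61 (permutation p = 0.0405, adjusted 0.182), and r was 0.81 within Laiwu, 0.91 within Yorkshire and 0.66 without Laiwu 3 and Yorkshire 4. The remaining relations of the 9 genes with this score and with a score of 8 slow fibre markers did not pass over the 12 libraries. Nearest to passing with the slow fibre score was AGPAT3, at r = -0.62 (permutation p = 0.0305, adjusted 0.137). Its rho was -0.73 (permutation p = 0.00839, adjusted 0.0547). Within Laiwu, r with the slow fibre score was 0.98 for GPAM and -0.95 for BSCL2, and within Yorkshire -0.48 and 0.34. For GPAT3 r was 0.18 within Laiwu and 0.93 within Yorkshire. The adjusted exact permutation p was 0.05 for GPAM in Laiwu and for GPAT3 in Yorkshire, not under the threshold. Over the 12 libraries r with the slow fibre score was 0.33 for GPAM, -0.15 for BSCL2 and 0.30 for GPAT3. Without Laiwu 1 and Laiwu 4, the libraries of extreme slow fibre score, r was -0.25, 0.27 and 0.84. The permutation p for GPAT3 was then 0.00402 before and 0.0724 after adjustment.

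**Figure D4:**
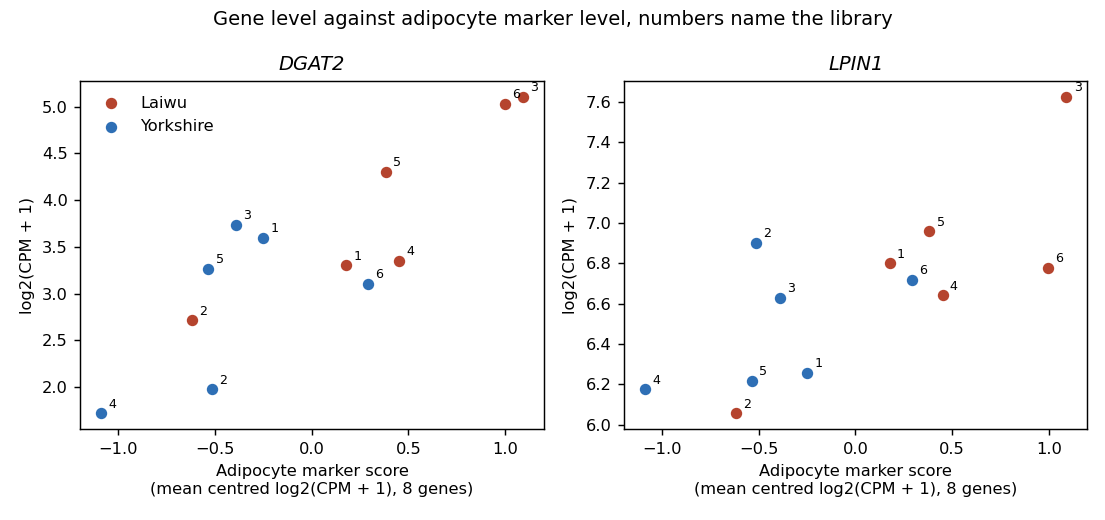
Level of DGAT2 (left) and LPIN1 (right) as log2(CPM + 1) against the adipocyte marker score, 1 point per library, Laiwu red and Yorkshire blue. DGAT2 is highest in Laiwu 3 and Laiwu 6, which also have the highest marker scores of 1.09 and 0.997, and lowest in Yorkshire 4, which has the lowest score of -1.09.

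None of the adipocyte markers passed the test between the breeds. Of 8 tested markers 7 had a log2 fold change above 0, where 49.7% of all tested genes did. At an unadjusted p under 0.05 by edgeR were 6 of the 8, where 4.44% of all tested genes were. At an adjusted p under 0.05 were 0, and the median log2 fold change was 1.10. These markers were read in the same libraries, so the 6 are not separate tests of breed. The marker list was also chosen with earlier results of these data known. The adipocyte score ran in Laiwu from -0.62 in Laiwu 2, below every Yorkshire library but Yorkshire 4, to 1.09 in Laiwu 3. The summed level of the markers, over 9 genes found, ran from 106.2 to 275.98 FPKM in Laiwu and from 101.9 to 160.2 FPKM in Yorkshire. None was at 0 in all libraries. PLIN4 and CFD, the most abundant by the mean over all 12 libraries, were at 72.5 ± 16.5 and 28.9 ± 2.80 FPKM in Laiwu muscle, against 57.3 ± 15.0 and 30.3 ± 4.80 FPKM in Yorkshire muscle (SD, n = 6 each). Their log2 fold changes, 0.30 and -0.10, were the nearest to 0 of the 8. The 6 markers with an unadjusted p under 0.05, named after their values were seen, had larger ones, of 1.64 for ADIPOQ, 1.61 for PLIN1, 1.23 for CIDEC, 1.23 for PPARG, 0.98 for LIPE and 0.66 for FABP4, each with an edgeR adjusted p of 0.912. The part of fat cell content in the DGAT2 and LPIN1 differences was not tested. Slow fibre markers, led by MYH7 and TNNC1, had 7 of 8 members below 0, where 49.7% of all tested genes lay above 0. Their median log2 fold change was -0.49, with 0 members called and 0 at an unadjusted p under 0.05 by edgeR. They summed to between 697.3 and 2914 FPKM in Laiwu and between 1606 and 3434 FPKM in Yorkshire. Their score was lowest in Laiwu 1 and Laiwu 4, at -1.42 and -0.90. The other Laiwu libraries lay within the Yorkshire range of -0.34 to 0.80. Medians of the other marker lists were -0.05 for fast fibres (4 of 9 above 0), 0.05 for endothelium (5 of 7), -0.03 for macrophages (2 of 6) and 0.37 for fibroblasts and fibro-adipogenic cells (6 of 6). In each of these lists 0 members were called and 0 had an unadjusted p under 0.05 by edgeR. Members of a list were read in the same libraries and are not separate tests.

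Genes beside the 9 in the pathway were likewise not called. Among 11 other acyltransferases and phosphatases of glycerolipid synthesis, 8 lay above 0 and 3 below, 0 were called, and the median log2 fold change was 0.06. GPAT4, another first-step enzyme of the endoplasmic reticulum, was at 20.5 ± 3.97 FPKM in Laiwu muscle, against 20.6 ± 4.01 FPKM in Yorkshire muscle (SD, n = 6 each), well above GPAM and GPAT3. AGPAT5 was at 15.98 ± 4.06 FPKM in Laiwu muscle, against 15.5 ± 3.96 FPKM in Yorkshire muscle. LPIN2 and LPIN3, the other lipins, were at 1.06 and 1.23 FPKM in Laiwu muscle, against 1.09 and 1.17 FPKM in Yorkshire muscle, and were named after their values were seen.

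Genes that supply the substrates split evenly. Of 8 tested, 4 lay above 0 and 4 below, 0 were called, and the median log2 fold change was -0.05. GPD1, which makes glycerol 3-phosphate, was the most abundant at 211.7 ± 32.2 FPKM in Laiwu muscle, against 234.9 ± 44.2 FPKM in Yorkshire muscle (SD, n = 6 each), giving a log2 fold change of -0.17 ± 0.14 (SE). ACSL1, which activates fatty acids to acyl-CoA, was at 35.6 ± 18.7 FPKM in Laiwu muscle, against 25.9 ± 4.20 FPKM in Yorkshire muscle, a log2 fold change of 0.42 ± 0.24, with an edgeR adjusted p of 0.912.

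A further list, drawn up around droplet assembly, seipin and RAB18, held 10 tested genes, of which 8 lay above 0 and 2 below. The 2 below, named after their values were seen, were SPAST at -0.08 and TMX1 at -0.22. Of all tested genes 49.7% lay above 0. None of the 10 was called, and the median was 0.15. At an unadjusted p under 0.05 by edgeR were 2 of the 10, where 4.44% of all tested genes were. This list too was chosen with earlier results of these data known. ATL2, an atlastin that fuses membranes of the endoplasmic reticulum, was at 37.1 ± 3.50 FPKM in Laiwu muscle, against 29.8 ± 2.90 FPKM in Yorkshire muscle (SD, n = 6 each), giving a log2 fold change of 0.29 ± 0.10 (SE) with an unadjusted p of 0.00919 and an adjusted p of 0.912 by edgeR. RAB3GAP2, part of the exchange factor of RAB18, was at 19.4 ± 3.59 FPKM in Laiwu muscle, against 17.4 ± 1.93 FPKM in Yorkshire muscle. LDAF1, the partner of seipin, was at 14.9 ± 4.66 FPKM in Laiwu muscle, against 12.9 ± 2.02 FPKM in Yorkshire muscle and was named after its value was seen.

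The genes whose log2(CPM + 1) ran closest to each of the 9 over the 12 libraries were sought among 9672 others with a mean of at least 1 FPKM, and as the highest of so many values they carry no test. DGAT2 was closest to an unnamed gene, ENSSSCG00000037487 (r = 0.90), and to LPL, the lipoprotein lipase (r = 0.90), which averaged 36.2 FPKM in Laiwu muscle, against 21.8 FPKM in Yorkshire muscle. LPIN1 was closest to CPT1A (r = 0.95), at 1.42 FPKM in Laiwu muscle, against 0.869 FPKM in Yorkshire muscle, and to ADIPOR2 (r = 0.93). FITM1 was closest to ORAI1 (r = 0.94) and ADI1 (r = 0.92), and FITM2 to TBC1D20 (r = 0.92) and TBL2 (r = 0.89). BSCL2 was closest to RPL15 (r = 0.96) and MIF (r = 0.93), AGPAT3 to SNX10 (r = 0.98) and MBP (r = 0.93), and DGAT1 to GLIS2 (r = 0.91) and MAD2L1BP (r = 0.86). GPAM was closest to RHOBTB3 (r = 0.90) and ZNF507 (r = 0.89), and GPAT3 to LDHD (r = 0.88) and ART5 (r = 0.87).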

How the data were processed

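Poly(A) RNA of longissimus dorsi was sequenced in 6 Laiwu and 6 Yorkshire samples. Per the series' design text and the submitters' processing notes, reads were aligned with HISAT2 2.2.1 to Sscrofa11.1, and cutadapt 1.9, StringTie 1.3.4d, DESeq2 and edgeR are named without a role. The sources used here give no annotation release. The deposited table holds whole-number counts and FPKM per gene and library, per the file headers. Gene names and coordinates are those of the deposited table.

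Counts were tested with edgeR 4.0.16 (TMM, robust, no covariate, R 4.3.3) on genes averaging 0.5 FPKM or more, and the test was checked on simulated counts. SE is the fold change over the root of its F statistic. DESeq2 1.42.0 and limma 3.58.1 served as alternatives. Correlations used 100000 permutations over 12 libraries and all 720 pairings within a breed (Python 3.11.15). A count of 0 allows up to 3 counts, 0.0446 to 0.0546 CPM, counting error only. Named genes were the 9 studied, the 2 of highest mean FPKM in each other list, and the 2 closest to each of the 9. The 9 genes and all lists were chosen with earlier results of these data known.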

Additional observations from a re-analysis of the deposited data

Results flagged for a closer look

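In 18 sets of 6 libraries, 1 per gene and breed, 2 held a library far from the others by the gap to its neighbour over the range, a level chance gives in about 1 of 20 sets. GPAT3 stood at 1.40 FPKM in Laiwu 4, below the other Laiwu libraries, with a gap of 0.806 of the range. FITM2 stood at 5.96 FPKM in Yorkshire 3, above the other Yorkshire libraries, with a gap of 0.802 of the range. Both flags were set on FPKM, which lacks the TMM scaling, and Yorkshire 3 had the largest TMM factor, 1.112. On log2(CPM + 1) FITM2 was at 4.39 in Yorkshire 3, nearer to the 4.24 of Yorkshire 2, with the lowest, Yorkshire 4, at 4.07. The FITM2 flag therefore depends on the scale.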

How the results depend on the processing

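No setting called any of the 9 genes or of the other pathway genes, and DESeq2 called 1 gene of all those tested, the other settings 0. Genes at an unadjusted p under 0.05 numbered 498, and 284 without Laiwu 3, 293 without Yorkshire 5 and 1715 of 23271 with no low-value filter. DGAT2, LPIN1, GPAM and FITM1 kept the sign of their fold change in every setting tried, and DGAT2 ran from 0.98 to 1.45, LPIN1 from 0.17 to 0.50, GPAM from 0.16 to 0.33 and FITM1 from -0.21 to -0.03 with 1 library left out. Signs turned for AGPAT3 by library size only (0.015) and by limma on log2(FPKM + 1) (0.0032) and log2(FPKM + 0.1) (0.0014), and for FITM2 in those limma fits (-0.0031 and -0.00996). Under limma voom with quality weights the values were -0.021 for DGAT1, 0.046 for BSCL2 and -0.046 for FITM2. With 1 library left out, AGPAT3 ran from -0.12 to 0.10, FITM2 from -0.11 to 0.081, GPAT3 from -0.030 to 0.10, DGAT1 from -0.096 to 0.081 and BSCL2 from -0.16 to 0.0075. The cause was not tested.

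Same-numbered libraries of the breeds showed no steady likeness: their deviations correlated at -0.24 to 0.38, and 2 of 12 libraries correlated best with their own number. Whether they shared a processing step was not tested. With the number as a replicate block, 0 of the 9 genes and 0 of all tested genes were called, and 433 had an unadjusted p under 0.05. The smallest edgeR adjusted p over all tested genes was 0.289 with the block and 0.912 without it. FITM2 was at -0.031 with the block. The checks of the FITM1 and FITM2 relation were added after the data were seen. DGAT1, GPAM and GPAT3, with 265 to 1219 counts per library, are the least precisely counted of the 9 beside DGAT2.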

Other observations

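Phosphatidate and diacylglycerol also feed phospholipid synthesis, and 14 genes of those branches were tested. Of these, 8 lay above a log2 fold change of 0 and 6 below, 0 were called by edgeR with 0 at an unadjusted p under 0.05, and the median was 0.06. PCYT1A, which controls phosphatidylcholine synthesis, was at 14.5 ± 1.04 FPKM in Laiwu muscle, against 12.8 ± 2.25 FPKM in Yorkshire muscle (SD, n = 6 each). DGKZ, a kinase that turns diacylglycerol back into phosphatidate, was at 13.8 ± 1.89 FPKM in Laiwu muscle, against 14.3 ± 1.71 FPKM in Yorkshire muscle.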
